A study of Mus musculus with 18 samples.

Results

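The genes described here are 9 inflammatory cytokines or their antagonist (Il6, Lif, Osm, Il1a, Il1b, Il1rn, Il33, Il18 and Tnf) and Ptx3, the gene of a pentraxin that cytokines induce. They were taken by symbol from the table of fragments per gene, where 10 of 10 were found among 23356 features, and all 10 passed the filter on low counts. RNA of whole lung from male C57BL/6 mice, 12 to 16 weeks old, was sequenced in 6 groups of 3 libraries, numbered 0 to 2. The groups were β-arrestin 1 −/− mice in hypoxia and in normoxia, mice labelled β-arrestin 2 −/− in hypoxia and in normoxia, and wild type mice in hypoxia and in normoxia. Hypoxia was 4 weeks at a pressure matching 18000 feet (a labelled PAO2 of about 70 mmHg), and normoxia was 4 weeks at normal altitude (about 150 mmHg). β-Arrestins bind activated G protein-coupled receptors and end or redirect their signalling. Both deletions are given without a promoter or Cre in the labels. Nothing in the labels ties a library to a separate mouse, and p-values here cover the spread among libraries, which may be technical.

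Cytokines of the IL-6 family, here IL-6, LIF and oncostatin M (Osm), signal through the shared receptor chain gp130 (Il6st) and STAT3. IL-1α and IL-1β act on the IL-1 receptor, which the antagonist encoded by Il1rn occupies without signalling, and IL-33 and IL-18 are relatives with receptors of their own. TNF and IL-1 both activate NF-kappaB. PTX3 is a soluble pattern-recognition protein that binds the complement component C1q, and endothelial cells, fibroblasts and myeloid cells make it when IL-1 or TNF reaches them. Chronic hypoxia raises pressure in the lung circulation of rodents, and inflammation around the vessels is a known part of that response.

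The library totals ran from 16806806 to 25980876 estimated fragments, and 16823 to 17410 genes had at least 1. Arrb1, the deleted gene of the first line, was at 87.7 ± 3.62 CPM in β-arrestin 1 −/− hypoxia, against 369 ± 57.9 CPM in wild type hypoxia (SD, n = 3 each). CPM here are fragments scaled to library size with TMM factors. Arrb2 was at 34.4 ± 3.57 CPM in the hypoxia libraries labelled β-arrestin 2 −/−, against 39.0 ± 5.02 CPM in wild type hypoxia, and at 40.7 ± 5.19 CPM, against 32.3 ± 2.55 CPM in wild type, in normoxia. Arrb2 RNA in the libraries with this label was thus at a level like that of wild type, below it in hypoxia and above it in normoxia, with none of the loss seen for Arrb1, and these are called the libraries labelled β-arrestin 2 −/− throughout. A tissue score, the average over lists of cardiac muscle, club cell and adipocyte markers of their mean log2 CPM, centred over all libraries, lay between 0.52 and 1.01 in wild type hypoxia, against −2.52 to −1.19 in wild type normoxia. In the wild type hypoxia comparison the 20 cardiac genes had a median log2 change of 2.45 with 0 called, the 19 club cell genes one of 2.69 with 8 called higher and 1 lower, and the 13 tested adipocyte genes one of 1.12 with 1 called higher. A fit with this score as covariate is given below where it changes a call on any of the 10 genes. In wild type the score did not overlap between hypoxia and normoxia, so there the fit cannot tell the score from hypoxia.

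The promoters of 3 genes are shown because they hold a match to the NF-kappaB motif, the factor downstream of TNF and IL-1. Each runs from 250 bases before to 50 after a start site in RefSeq (GRCm38.p6, the assembly of mm10), and capitals mark the NF-kappaB matches. The Ptx3 promoter is on the plus strand at chr3:66219637-66219936, that of Il6 on the plus strand at chr5:30012864-30013163, and that of Lif on the plus strand at chr11:4257318-4257617.
Ptx3: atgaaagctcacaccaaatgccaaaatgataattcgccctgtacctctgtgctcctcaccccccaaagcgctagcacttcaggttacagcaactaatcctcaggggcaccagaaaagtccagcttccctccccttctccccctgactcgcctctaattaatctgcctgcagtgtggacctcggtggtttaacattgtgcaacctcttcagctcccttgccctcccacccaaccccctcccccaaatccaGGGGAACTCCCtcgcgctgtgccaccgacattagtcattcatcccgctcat
Il6: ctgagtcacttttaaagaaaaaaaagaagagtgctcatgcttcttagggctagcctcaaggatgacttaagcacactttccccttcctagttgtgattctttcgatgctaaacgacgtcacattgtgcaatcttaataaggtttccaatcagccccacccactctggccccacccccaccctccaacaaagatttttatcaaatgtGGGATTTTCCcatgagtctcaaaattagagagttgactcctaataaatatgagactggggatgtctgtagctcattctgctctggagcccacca
Lif: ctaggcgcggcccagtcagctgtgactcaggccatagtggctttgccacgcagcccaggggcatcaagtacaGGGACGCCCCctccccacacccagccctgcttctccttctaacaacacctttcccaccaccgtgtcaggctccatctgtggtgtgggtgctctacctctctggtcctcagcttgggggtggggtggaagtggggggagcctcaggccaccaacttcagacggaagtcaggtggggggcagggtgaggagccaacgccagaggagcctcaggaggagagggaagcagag
The RefSeq table held 12 start sites for 9 of the 10 genes and none for Osm. The NF-kappaB motif, searched on both strands, stood in the promoters of 3 of these 9 genes and in 8.46% of 32851 promoters of the same length. Its first base lay at −44 from the start in Il6, at −178 in Lif and at −1 in Ptx3, where overlapping matches run across the start site. The AP-1 motif TGANTCA stood in 4 genes (Il6, Il1a, Lif and Il1rn), against 7.81% of promoters. The C/EBP motif TTNNGNAA stood in 7 genes, against 40.7%. For NF-kappaB, AP-1 and C/EBP the counts are of genes, some with several start sites, and the percents are of single promoters, so their units differ. The core ACGTG of the hypoxia-inducible factors stood in 0 of the 12 promoters, against 19.6%, which says only that those letters are not in these windows.

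Ptx3 lies on chromosome 3 from 66219910 to 66225805 (mm10, GENCODE) and Il6 on chromosome 5 from 30013114 to 30019981. Osm and Lif are neighbours on chromosome 11, from 4236420 to 4241026 and from 4257557 to 4272514, with 16530 bases between them. Il1a (129299610 to 129309972) and Il1b (129364570 to 129371139) are neighbours on chromosome 2, where Il1rn lies far off, from 24336853 to 24351494. Il33 is on chromosome 19 from 29925114 to 29960718, Il18 on chromosome 9 from 50554827 to 50581840, and Tnf on chromosome 17 from 35199381 to 35202007. All are protein-coding genes counted over their exons. The library kit does not mark strand. Fragments in the 222 exonic bases that Il1a shares with Gm14023 in GENCODE, or the 25 that Il1b shares with Il1bos, thus cannot be assigned to either gene. In GENCODE Ptx3 lies inside the span of Veph1 on the opposite strand but shares 0 exonic bases with it. The authors' deposited loci differ, with Il18 from 50565368, Il1a from 129297370, Il1b to 129375733 and Ptx3 from 66053558 to 66296837. The exons behind the counts may therefore differ from those of GENCODE.

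By FPKM, which sets genes on a scale per length, Il33 was the most abundant of the 10, with a mean of 26.7 over the 18 libraries. Il33 encodes an alarmin stored in nuclei of epithelial and stromal cells. Il18 followed at 9.65 and Il1b at 6.61 FPKM. Ptx3 (1.86), Il1a (1.77), Il1rn (1.76), Lif (1.47), Osm (1.09) and Tnf (0.933) came next, and Il6 was at 0.285 FPKM. Il6 had 0 to 2.21 FPKM, and in 4 of the 6 groups at most 8 fragments over 3 libraries.

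**Figure D1:**
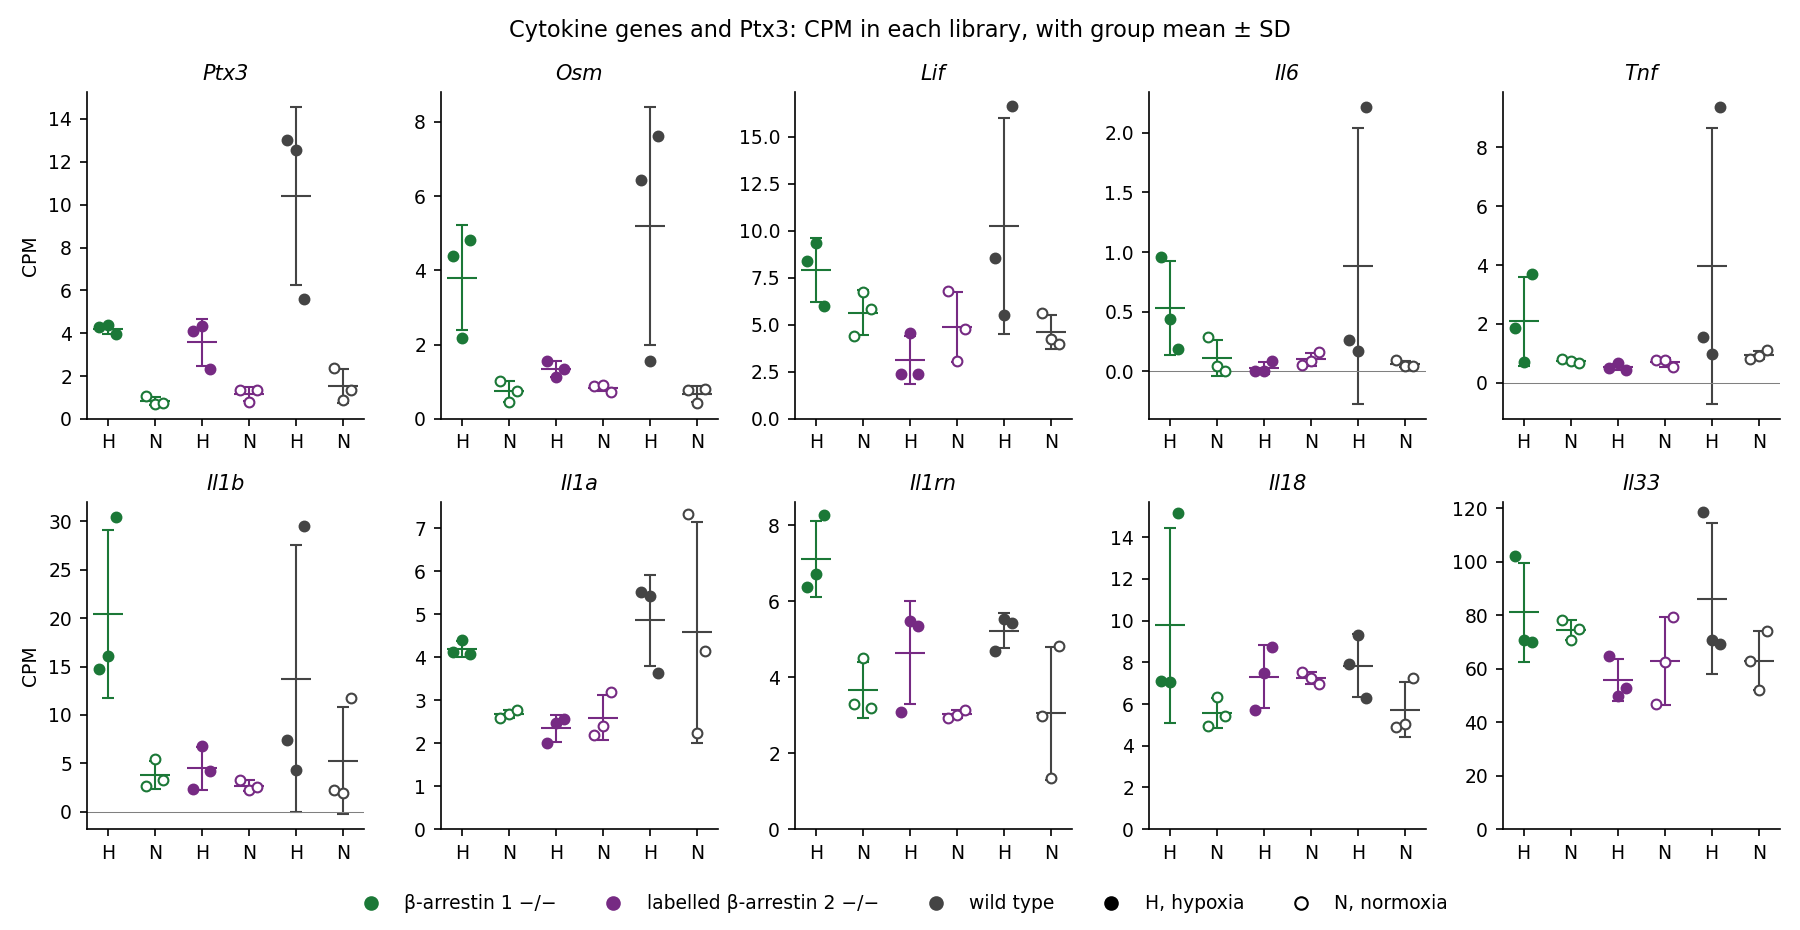
CPM (y axis, linear, a scale for each gene) of each gene in every library (points), with the group mean (wide bar) and SD (error bar, n = 3). Hypoxia (H, filled) stands left of normoxia (N, open) for β-arrestin 1 −/−, for the libraries labelled β-arrestin 2 −/− and for wild type. Ptx3 in wild type hypoxia, at 5.62 to 13.03 CPM, lies above every other group, and Il6, Tnf, Lif and Il1b each have their highest or next highest value in a single wild type hypoxia library.

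Ptx3 rose in hypoxia in all 3 genotypes. It was at 4.30, 4.36 and 3.94 CPM in β-arrestin 1 −/− hypoxia, against 1.07, 0.691 and 0.762 CPM in β-arrestin 1 −/− normoxia. Libraries labelled β-arrestin 2 −/− had 4.12, 4.31 and 2.31 CPM of it in hypoxia, against 1.36, 0.784 and 1.37 CPM in normoxia. In wild type lungs it was at 13.03, 12.6 and 5.62 CPM in hypoxia, against 2.39, 0.861 and 1.37 CPM in normoxia. In none of the 3 genotypes did the hypoxia and normoxia libraries overlap. The log2 changes were 2.31 ± 0.40 in β-arrestin 1 −/− (SE, adjusted p = 0.00678), 1.61 ± 0.39 in the libraries labelled β-arrestin 2 −/− (adjusted p = 0.00959) and 2.75 ± 0.38 in wild type (adjusted p = 0.000850), by edgeR's quasi-likelihood test with Benjamini-Hochberg adjustment over 15388 genes. A gene is called changed below where this adjusted p is under 0.05. Bulk RNA cannot tell more cells that make PTX3 from more RNA per cell.

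Ordered by mean CPM, Ptx3 stood highest in wild type hypoxia (10.4 ± 4.15), whose libraries did not overlap those of the next group, β-arrestin 1 −/− hypoxia (4.20 ± 0.23). That group and the hypoxia libraries labelled β-arrestin 2 −/− (3.58 ± 1.11) overlapped. Below them came wild type normoxia (1.54 ± 0.78), normoxia labelled β-arrestin 2 −/− (1.17 ± 0.34) and β-arrestin 1 −/− normoxia (0.84 ± 0.20), each overlapping its neighbour. The lowest hypoxia library labelled β-arrestin 2 −/−, at 2.31 CPM, lay below the highest wild type normoxia library, at 2.39 CPM. Veph1, whose span holds Ptx3, averaged 3.63 CPM in β-arrestin 1 −/− hypoxia against 1.85 in normoxia, 2.01 against 2.46 in the libraries labelled β-arrestin 2 −/−, and 2.75 against 1.91 in wild type.

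In β-arrestin 1 −/− lungs, 2 of the 10 genes were called higher in hypoxia, where 2.95% of all genes were called in either direction. They were Ptx3 and Osm, the gene of a gp130 cytokine made mainly by myeloid cells. In wild type 2 of 10 were called, against 4.76% of all genes, and they were again Ptx3 and Osm. In the libraries labelled β-arrestin 2 −/− the call on Ptx3 was 1 of 10, against 21.9% of all genes. All 10 log2 changes were above 0 in β-arrestin 1 −/− (median 1.20) and in wild type (median 1.26), and 5 of 10 in the libraries labelled β-arrestin 2 −/− (median −0.07). The median over all genes was 0.02, 0.00 and −0.04 in the same order of genotypes. Hypoxia libraries lay above all normoxia libraries for 6 of 10 genes in β-arrestin 1 −/− (11.4% of all genes), for 2 in the libraries labelled β-arrestin 2 −/− (22.6%) and for 3 in wild type (13.3%).

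**Figure D2:**
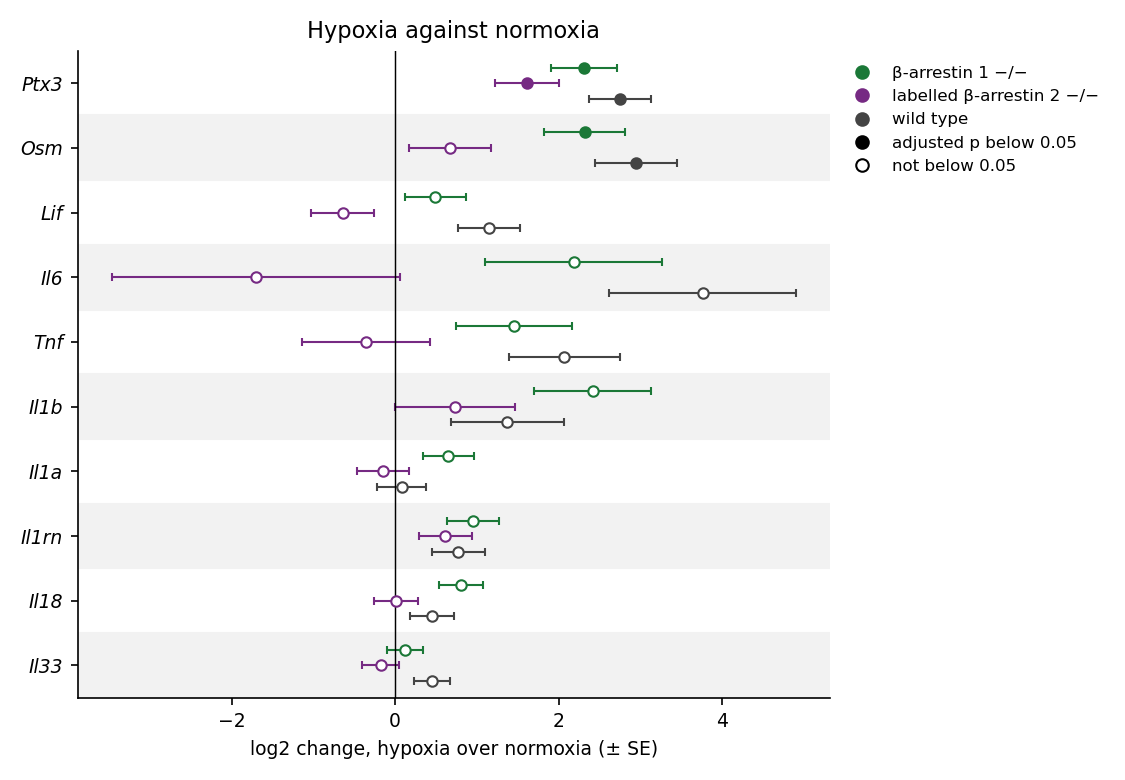
The log2 change of each gene, hypoxia over normoxia (x axis, ± SE), in each genotype, with filled points for an adjusted p below 0.05. Ptx3 is filled in all 3 genotypes, at 1.61 to 2.75, and Osm in β-arrestin 1 −/− (2.32) and wild type (2.95) but not in the libraries labelled β-arrestin 2 −/− (0.67).

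Of the IL-6 family, Osm was at 4.39, 2.18 and 4.82 CPM in β-arrestin 1 −/− hypoxia, against 1.03, 0.461 and 0.762 CPM in β-arrestin 1 −/− normoxia. In wild type it was at 6.43, 1.57 and 7.61 CPM in hypoxia, against 0.780, 0.430 and 0.795 CPM in normoxia. Groups did not overlap in either genotype, although 1 wild type hypoxia library was far below the other 2. The log2 change was 2.32 ± 0.49 in β-arrestin 1 −/− (edgeR, adjusted p = 0.0183) and 2.95 ± 0.50 in wild type (adjusted p = 0.00375). Osm in libraries labelled β-arrestin 2 −/− was at 1.56, 1.14 and 1.35 CPM in hypoxia, against 0.891, 0.915 and 0.726 CPM in normoxia. These groups did not overlap either, and the log2 change of 0.67 ± 0.50 did not pass (adjusted p = 0.342). With the tissue score as covariate the wild type change was 3.07 with an edgeR adjusted p of 0.0977. That score did not overlap between wild type hypoxia and normoxia, so this fit cannot tell the score from hypoxia in wild type. The β-arrestin 1 −/− call was lost in 5 of 15 alternatives, among them each fit without 1 normoxia library (adjusted p = 0.0510 to 0.0981).

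Lif, neighbour of Osm and the gene of a cytokine that acts through LIFR and gp130, did not pass in any of the 3 hypoxia comparisons. It was at 8.38, 9.34 and 6.01 CPM in β-arrestin 1 −/− hypoxia, against 4.39, 6.73 and 5.83 CPM in normoxia (log2 change 0.49 ± 0.37). Lif in libraries labelled β-arrestin 2 −/− was at 2.38, 4.59 and 2.40 CPM in hypoxia, against 6.82, 3.10 and 4.80 CPM in normoxia (−0.64 ± 0.39). In wild type it was at 8.56, 5.55 and 16.6 CPM in hypoxia, against 5.64, 4.26 and 3.98 CPM in normoxia (1.15 ± 0.38, edgeR adjusted p = 0.0972). The wild type groups overlapped by a narrow margin, and replicate 2 of hypoxia stood above the rest.

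Il6, the gene of the acute-phase cytokine, rested on few fragments. Summed over 3 libraries it had 34 fragments in β-arrestin 1 −/− hypoxia against 8 in normoxia, 2 against 7 in the libraries labelled β-arrestin 2 −/−, and 68 against 4 in wild type. The wild type hypoxia libraries were at 0.261, 0.169 and 2.22 CPM, so that replicate 2 held 83.8% of the group's CPM. Wild type normoxia libraries were at 0.092, 0.048 and 0.044 CPM. By counts alone the wild type ratio was 15.3 (95% exact interval 5.69 to 57.6), that in β-arrestin 1 −/− 4.78 (2.17 to 12.0) and that in the libraries labelled β-arrestin 2 −/− 0.267 (0.0270 to 1.40). These intervals cover counting error only. With the spread between libraries included, the log2 change was 3.76 ± 1.14 in wild type (edgeR, adjusted p = 0.0730) and 2.18 ± 1.08 in β-arrestin 1 −/− (adjusted p = 0.301), and neither passed. Without wild type hypoxia replicate 2 the wild type change was 1.71.

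Of the IL-1 family, Il1b showed the highest values in β-arrestin 1 −/− hypoxia. It was at 14.7, 16.1 and 30.4 CPM there, against 2.71, 5.48 and 3.27 CPM in β-arrestin 1 −/− normoxia. The groups did not overlap, and the log2 change was 2.42 ± 0.72 (edgeR, adjusted p = 0.0870), short of the threshold, while DESeq2 called it at an adjusted p of 0.0300. Il1b in libraries labelled β-arrestin 2 −/− was at 2.38, 6.82 and 4.27 CPM in hypoxia, against 3.30, 2.22 and 2.62 CPM in normoxia. In wild type it was at 7.43, 4.32 and 29.5 CPM in hypoxia, against 2.29, 1.91 and 11.7 CPM in normoxia. Replicate 2 was the highest library of each wild type group, and the change of 1.37 ± 0.69 (edgeR, adjusted p = 0.294) was 0.13 without wild type hypoxia replicate 2. Over the fits with 1 library left out in turn, the wild type change ran from 0.13 to 2.70.

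Il1rn, which encodes the IL-1 receptor antagonist, was at 6.36, 6.72 and 8.26 CPM in β-arrestin 1 −/− hypoxia, against 3.29, 4.51 and 3.18 CPM in normoxia. Il1rn in libraries labelled β-arrestin 2 −/− was at 3.08, 5.49 and 5.36 CPM in hypoxia, against 2.94, 3.01 and 3.15 CPM in normoxia. In wild type it was at 4.69, 5.55 and 5.43 CPM in hypoxia, against 2.98, 1.34 and 4.82 CPM in normoxia. Only in β-arrestin 1 −/− did hypoxia and normoxia not overlap, and the log2 changes of 0.96 ± 0.32, 0.61 ± 0.32 and 0.77 ± 0.32 did not pass (edgeR, adjusted p = 0.130, 0.178 and 0.197). With 1 library left out in turn the wild type change ran from 0.41 to 1.26. It passed without wild type normoxia replicate 2 (1.26, edgeR adjusted p = 0.0376). Across the 18 libraries Il1rn and Il1b had the highest correlation of log2 CPM of any pair among the 10, with a Pearson r of 0.818 and 0.668 within groups.

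Il1a, the membrane-bound and intracellular IL-1, was at 4.12, 4.41 and 4.07 CPM in β-arrestin 1 −/− hypoxia, against 2.59, 2.67 and 2.78 CPM in normoxia. These groups stood apart with little spread, but the change of 0.65 ± 0.31 did not pass (edgeR, adjusted p = 0.288). In the libraries labelled β-arrestin 2 −/− and in wild type the hypoxia and normoxia groups overlapped, and the log2 changes were −0.15 ± 0.32 and 0.08 ± 0.30. Wild type normoxia alone ran from 2.25 to 7.34 CPM.

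Il33 was at 102, 70.8 and 70.1 CPM in β-arrestin 1 −/− hypoxia, 64.7, 49.7 and 52.8 CPM in hypoxia labelled β-arrestin 2 −/−, and 119, 70.7 and 69.3 CPM in wild type hypoxia. In normoxia its libraries lay between 46.8 and 79.4 CPM over the 3 genotypes. Replicate 0 stood apart in both β-arrestin 1 −/− and wild type hypoxia, and the log2 changes of 0.12, −0.18 and 0.45 did not pass. Il18, which an inflammasome protease activates, was at 7.10, 7.07 and 15.1 CPM in β-arrestin 1 −/− hypoxia, against 4.93, 6.36 and 5.42 CPM in normoxia (0.80 ± 0.27, edgeR adjusted p = 0.132). Without replicate 2 of that hypoxia group the Il18 change was 0.35. The Il18 change was 0.01 ± 0.27 in the libraries labelled β-arrestin 2 −/−, and in wild type it was 0.45 ± 0.27.

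Tnf was at 1.88, 0.698 and 3.69 CPM in β-arrestin 1 −/− hypoxia, against 0.821, 0.737 and 0.672 CPM in normoxia. Tnf in libraries labelled β-arrestin 2 −/− was at 0.520, 0.667 and 0.436 CPM in hypoxia, against 0.786, 0.784 and 0.524 CPM in normoxia. In wild type it was at 1.56, 0.974 and 9.37 CPM in hypoxia, against 0.826, 0.908 and 1.11 CPM in normoxia. Replicate 2 held 78.7% of the wild type hypoxia CPM, and the log2 change of 2.07 ± 0.68 (edgeR, adjusted p = 0.0978) was 0.41 without it.

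**Figure D3:**
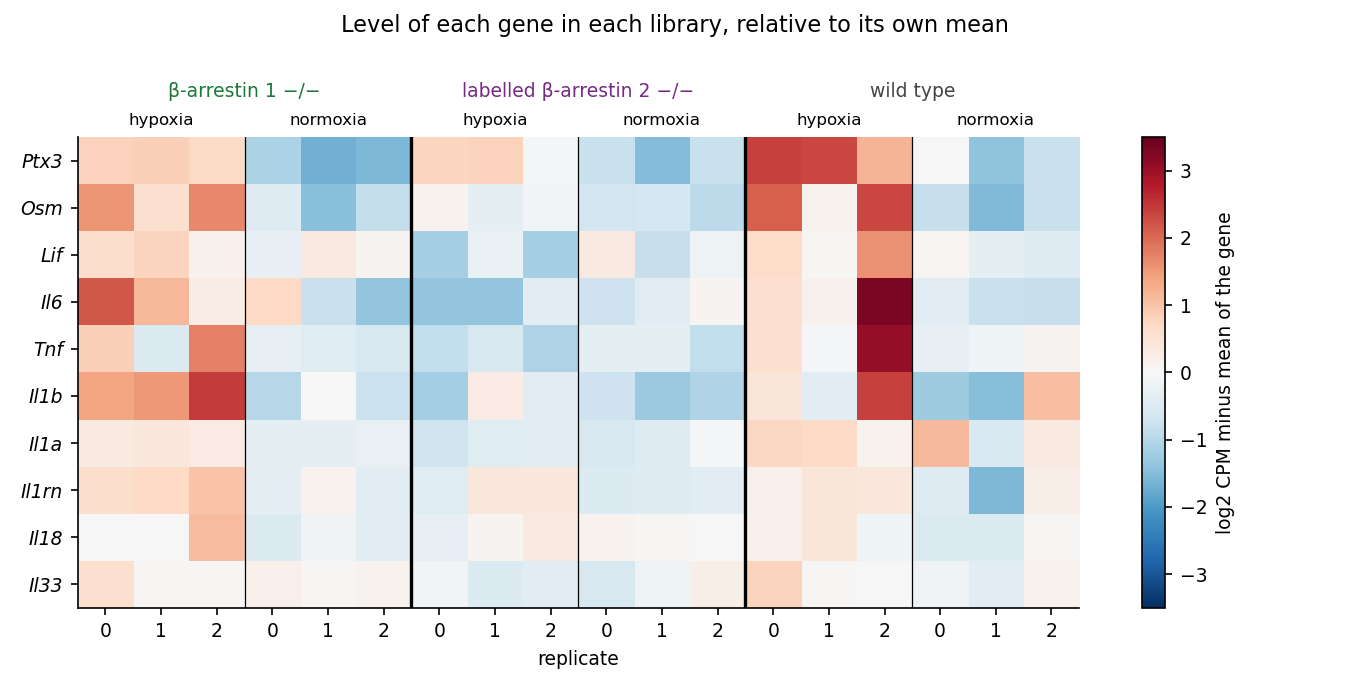
Log2 CPM of each gene in each of the 18 libraries, minus the gene's mean (colour, blue below and red above), with hypoxia left of normoxia in each genotype. Wild type hypoxia replicate 2 is the darkest red for Il6 (3.31) and Tnf (3.09), while Ptx3 in that library (1.18) is paler than in the other 2 wild type hypoxia libraries (2.38 and 2.33).

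Wild type hypoxia replicate 2 was the highest of its group for Osm, Lif, Il6, Tnf and Il1b and the lowest for Ptx3, Il1a, Il18 and Il33. Without it the median log2 change of the 10 genes in wild type was 0.59, and Ptx3 (3.04) and Osm (2.56) were still called (edgeR, adjusted p = 0.000387 and 0.0170). β-Arrestin 1 −/− hypoxia replicate 2, with the fewest fragments of the 18 libraries, was its group's highest for Osm, Tnf, Il1b, Il1rn and Il18. It was the lowest for the other genes. Leaving that library out gave a median of 0.81 in β-arrestin 1 −/−, against 1.20 with all libraries, and 2 genes were called. Markers of several kinds also changed in hypoxia. Some did so in the libraries labelled β-arrestin 2 −/− too. Of 20 immediate early genes, which stress and handling of tissue also raise, 3 were called higher in hypoxia in β-arrestin 1 −/− (median log2 change 0.80), 5 higher and 2 lower in the libraries labelled β-arrestin 2 −/− (0.53), and 10 higher in wild type (1.17). Beside these counts and those of the lists below, 2.95%, 21.9% and 4.76% of all genes were called in that order of genotypes. The score of the 20 immediate early genes was 1.52 in wild type hypoxia replicate 2, against 0.50 and −0.44 in the other 2. The 17 measured of 18 neutrophil markers summed to 643 to 1023 CPM in β-arrestin 1 −/− hypoxia against 211 to 325 CPM in normoxia. They summed to 615 to 905 against 276 to 376 CPM in the libraries labelled β-arrestin 2 −/−, and to 588 to 737 against 155 to 403 CPM in wild type. The summed neutrophil markers of hypoxia and normoxia did not overlap in any genotype. Their centred mean log2 CPM did overlap in wild type, at 0.056 in hypoxia replicate 1 and 0.073 in normoxia replicate 2. Of 15 tested neutrophil markers, 6 were called higher in hypoxia in β-arrestin 1 −/− (median 1.611). There were 3 such calls in the libraries labelled β-arrestin 2 −/− (1.566) and 2 in wild type (1.565). Of 15 alveolar macrophage markers, 3 were called higher in hypoxia in β-arrestin 1 −/− (median 0.79), 2 in the libraries labelled β-arrestin 2 −/− (0.31) and 4 in wild type (0.70). They summed to 1148 to 1416 CPM in hypoxia against 675 to 787 CPM in normoxia in β-arrestin 1 −/−, to 982 to 1430 against 636 to 700.1 CPM in the libraries labelled β-arrestin 2 −/−, and to 782 to 1133 against 451 to 758 CPM in wild type. Of 18 T and NK cell markers, 7 were called higher in wild type hypoxia (median 1.10), where they summed to 100.3 to 158 CPM, against 43.3 to 81.8 CPM in normoxia. Of 11 tested B and plasma cell markers, 5 were called higher in wild type hypoxia (median 1.69), where they summed to 86.9 to 327 CPM, against 36.8 to 85.8 CPM in normoxia. In β-arrestin 1 −/− 0 markers of these last lists were called (medians 0.43 and 1.02), and in the libraries labelled β-arrestin 2 −/− 1 T and NK cell marker was lower (0.18 and 0.02). No measured marker of these 5 lists was at 0 in all 18 libraries. Their part in the cytokine levels was not tested.

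In hypoxia, all 10 genes had a lower fitted level in the libraries labelled β-arrestin 2 −/− than in wild type. The median log2 change was −1.57, against −0.01 over all genes. In 7 of 10 the libraries did not overlap, against 9.07% of all genes that lay lower in this way. The call was reached by Lif, at −1.71 ± 0.38 (edgeR, adjusted p = 0.0460), 1 of 10 against 0.923% of all genes. Lif was at 2.38, 4.59 and 2.40 CPM in the libraries labelled β-arrestin 2 −/− and at 8.56, 5.55 and 16.6 CPM in wild type. That call was lost in 9 of 15 alternatives, and without wild type hypoxia replicate 2 the change was −1.16 (adjusted p = 0.235). The wild type hypoxia libraries are those of the hypoxia comparison above, so the wild type hypoxia response and this difference share them.

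Close to the threshold were Ptx3 at −1.54 ± 0.35 (edgeR, adjusted p = 0.0529), Osm at −1.95 ± 0.46 (0.0583), Tnf at −2.87 ± 0.72 (0.0785) and Il6 at −4.75 ± 1.27 (0.0967). Their libraries did not overlap with wild type either. For Ptx3 the values were 4.12, 4.31 and 2.31 CPM in the libraries labelled β-arrestin 2 −/−, against 13.03, 12.6 and 5.62 CPM in wild type. Without wild type hypoxia replicate 2, the lowest of the wild type libraries, the Ptx3 change was −1.83 and passed (edgeR, adjusted p = 0.0194). With the tissue score as covariate it was −1.56 and passed (edgeR, adjusted p = 0.046), and it passed in 5 of 15 alternatives in all. For Osm the values were 1.56, 1.14 and 1.35 CPM against 6.43, 1.57 and 7.61 CPM in wild type, so that the highest of the first and the lowest of the second nearly met. Without wild type hypoxia replicate 2 Osm was at −1.56, Tnf at −1.21 and Il6 at −2.70 (edgeR, adjusted p = 0.240, 0.467 and 0.559). Osm passed in 3 of 15 alternatives, Tnf in 3 of 15 and Il6 in 2 of 12. Il6 had 2 fragments against 68 in wild type, a ratio of 0.0299 (95% exact interval 0.00355 to 0.112, counting error only).

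Il1a (−1.05 ± 0.31) and Il33 (−0.63 ± 0.22) also did not overlap with wild type in hypoxia, at an edgeR adjusted p of 0.140 and 0.235. Il1b (−1.61 ± 0.70), Il1rn (−0.17 ± 0.32) and Il18 (−0.10 ± 0.27) overlapped, and the Il1b difference was −0.37 without wild type hypoxia replicate 2. Of the 10 genes, 8 had an unadjusted p below 0.05, against 1802 of all 15388 genes tested. The immediate early genes, 20 of 20 measured, had a median log2 change of −0.70 in this comparison, with 1 called higher and 0 lower. B and plasma cell markers had a median of −1.15 and 0 calls, T and NK cell markers one of −0.37 and 0 calls, and monocyte and interstitial macrophage markers one of −0.32 with 1 higher and 2 lower calls. The 15 tested neutrophil markers had a median of −0.24 and the alveolar macrophage markers one of 0.14, both with 0 calls. The part of these markers in the difference was not tested.

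**Figure D4:**
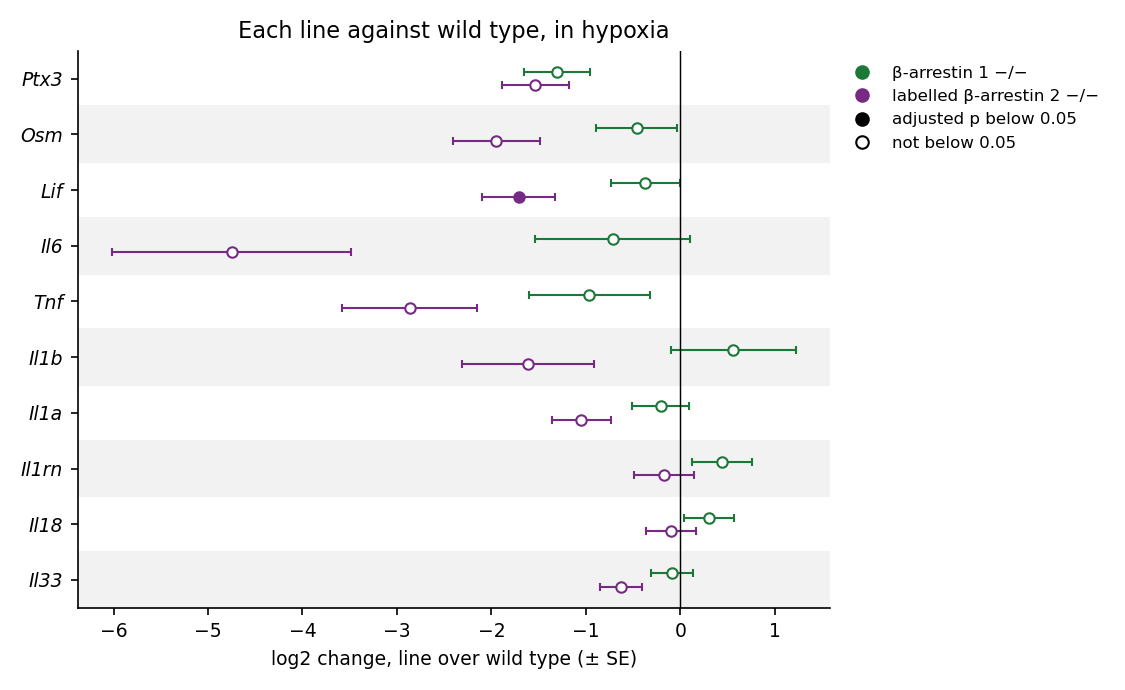
The log2 change of each gene in hypoxia, each line over wild type (x axis, ± SE), for β-arrestin 1 −/− and for the libraries labelled β-arrestin 2 −/−. All 10 points of the libraries labelled β-arrestin 2 −/− lie below 0, from −4.75 (Il6) to −0.10 (Il18), with Lif alone filled, and the β-arrestin 1 −/− points lie between −1.30 (Ptx3) and 0.56 (Il1b).

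Against wild type in hypoxia, 0 of 10 genes were called in β-arrestin 1 −/− by edgeR, against 0.201% of all genes. An unadjusted p below 0.05 was found for 1739 of all 15388 genes tested and for 1 of the 10. That gene was Ptx3, at 4.30, 4.36 and 3.94 CPM in β-arrestin 1 −/− and 13.03, 12.6 and 5.62 CPM in wild type. Its libraries did not overlap, and the log2 change was −1.30 ± 0.35 (adjusted p = 0.209). DESeq2 called it at an adjusted p of 0.0453. Il1rn lay above wild type without overlap, at 0.44 ± 0.31 (adjusted p = 0.581).

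In normoxia, in β-arrestin 1 −/− against wild type, 0 of 10 were called by edgeR, against 0.221% of all genes. An unadjusted p below 0.05 was found for 1341 of all 15388 genes tested and for 1 of the 10, Il1a (−0.77 ± 0.31, adjusted p = 0.460). The median log2 change of the 10 was 0.06. In the libraries labelled β-arrestin 2 −/− 0 of 10 were called, against 9.49% of all genes. An unadjusted p below 0.05 was found for 4867 of all 15388 genes tested and again for 1 of the 10. That was again Il1a, at −0.81 ± 0.31 (adjusted p = 0.0935), and the median of the 10 was −0.01. DESeq2 called 0 of 10 in both of these comparisons.

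The hypoxia response itself was compared between lines by an interaction term. Between β-arrestin 1 −/− and wild type, 0 of 10 responses were called to differ by edgeR, against 0% of all genes. An unadjusted p below 0.05 was found for 898 of all 15388 genes tested and for 0 of the 10. Between the libraries labelled β-arrestin 2 −/− and wild type, 0 of 10 were called, against 6.05% of all genes. An unadjusted p below 0.05 was found for 4069 of all 15388 genes tested and for 5 of the 10. All 10 differences were below 0, with a median of −0.89 against −0.06 over all genes. The 5 were Lif (−1.79 ± 0.54, adjusted p = 0.0598), Osm (−2.27 ± 0.71, 0.0647), Il6 (−5.46 ± 2.17, 0.129), Tnf (−2.42 ± 1.04, 0.154) and Ptx3 (−1.14 ± 0.54, 0.189). Without wild type hypoxia replicate 2 they were −1.23 for Lif, −1.87 for Osm, −3.41 for Il6, −0.75 for Tnf and −1.43 for Ptx3, and the difference of Il1b was then above 0, at 0.61. The other interaction gave 0 calls by DESeq2 too, and this one gave 3 (Il6, Lif and Osm).

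The authors' deposited table of comparisons marks 6 as significant for hypoxia in β-arrestin 1 −/− (Ptx3, Osm, Tnf, Il1b, Il1rn and Il18), 1 in the libraries labelled β-arrestin 2 −/− (Ptx3, with Il6 and Tnf not tested) and 6 in wild type (Ptx3, Osm, Lif, Tnf, Il1b and Il33). In hypoxia the authors' deposited table marks 2 as lower in β-arrestin 1 −/− than in wild type (Ptx3 and Tnf) and 7 as lower in the libraries labelled β-arrestin 2 −/− (Ptx3, Osm, Lif, Tnf, Il1a, Il1b and Il33). In normoxia the authors' deposited table marks 0 in β-arrestin 1 −/− and 1, Il1b, in the libraries labelled β-arrestin 2 −/−, with Il6 and Osm not tested in either. For Ptx3 in hypoxia the authors' deposited table gives a q-value of 0.00228 for β-arrestin 1 −/− and 0.00124 for the libraries labelled β-arrestin 2 −/−, each against wild type.

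The receptors for these cytokines and the lists of pathway genes were read against the share of all genes called in hypoxia, which was 2.95% in β-arrestin 1 −/−, 21.9% in the libraries labelled β-arrestin 2 −/− and 4.76% in wild type. In the libraries labelled β-arrestin 2 −/− 3 of 10 IL-1 receptor genes, 3 of 13 IL-6 family genes, 3 of 11 IL-6 signalling genes, 4 of 16 inflammasome genes, 4 of 15 TNF genes, 3 of 18 pentraxin genes and 4 of 23 acute-phase genes were called, with shares on both sides of that 21.9%, and the counts are no result about the lists. Of 10 tested genes of IL-1 family receptors and decoys, 0 were called in hypoxia in β-arrestin 1 −/− and in wild type, and 3 fell in the libraries labelled β-arrestin 2 −/−. Il18r1, the binding chain for IL-18, was at 65.8, 63.8 and 83.03 CPM in hypoxia labelled β-arrestin 2 −/−, against 126, 148 and 160 CPM in normoxia (−1.03 ± 0.13, edgeR adjusted p = 0.000207). Il1rl1, the receptor for IL-33, was at 2.12, 2.86 and 2.88 CPM in hypoxia, against 6.61, 5.62 and 7.06 CPM in normoxia (−1.29 ± 0.21, adjusted p = 0.000968). Il1r1, the signalling receptor for IL-1, was at a mean of 54.6 CPM in hypoxia and 73.5 CPM in normoxia (−0.43 ± 0.11, adjusted p = 0.0149). Both Il18r1 and Il1rl1 stayed called in 15 of 15 alternatives. The response of each differed from that in wild type by −0.65 ± 0.18 and −1.10 ± 0.30 (adjusted p = 0.0468 and 0.0417), calls that held in 4 of 21 alternatives.

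Tnfrsf1b, the TNF receptor found mostly on immune and endothelial cells, went opposite ways. It was at 35.9, 35.1 and 37.4 CPM in hypoxia labelled β-arrestin 2 −/−, against 46.9, 48.6 and 48.1 CPM in normoxia (−0.41 ± 0.09, edgeR adjusted p = 0.00653). In wild type it was at 48.9, 45.2 and 51.5 CPM in hypoxia, against 37.6, 33.6 and 44.3 CPM in normoxia (0.33 ± 0.09, adjusted p = 0.0473, a call that held in 6 of 15 alternatives). In β-arrestin 1 −/− it averaged 49.2 CPM in hypoxia and 49.9 CPM in normoxia. The difference in response between the libraries labelled β-arrestin 2 −/− and wild type, −0.74 ± 0.13, was called (adjusted p = 0.00703) and held in 21 of 21 alternatives. In normoxia Tnfrsf1b was already higher in these libraries than in wild type (0.32 ± 0.09, adjusted p = 0.0424, held in 6 of 15 alternatives). Tnfrsf1a, the widely expressed TNF receptor, was not called in any hypoxia comparison.

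Of the 13 tested ligands and receptors of the IL-6 family, 0 rose and 1 fell in hypoxia in β-arrestin 1 −/−, 1 rose and 2 fell in the libraries labelled β-arrestin 2 −/−, and 0 were called in wild type. Osmr, the oncostatin M receptor, was the gene that fell in β-arrestin 1 −/−, at a mean of 65.0 CPM in hypoxia and 98.8 CPM in normoxia (−0.60 ± 0.13, edgeR adjusted p = 0.0183). That call held in 10 of 15 alternatives, with an adjusted p of up to 0.169, and was lost from only the groups compared and without each of 4 libraries (β-arrestin 1 −/− hypoxia replicates 1 and 2, normoxia replicates 0 and 2). In wild type the Osmr change was −0.44 ± 0.13 (adjusted p = 0.0573). Il6ra, the IL-6 binding chain, rose in the libraries labelled β-arrestin 2 −/−, at 63.1, 61.1 and 66.7 CPM in hypoxia, against 20.6, 31.6 and 38.3 CPM in normoxia (1.08 ± 0.31, adjusted p = 0.0237, held in 11 of 15 alternatives). In normoxia Il6ra averaged 30.2 CPM in these libraries, against 55.6 CPM in wild type and 50.5 CPM in β-arrestin 1 −/−. Its hypoxia means were 63.6, 49.9 and 41.3 CPM in that order of genotypes. The shared chain Il6st and the receptor Lifr were not called in any hypoxia comparison.

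**Figure D5:**
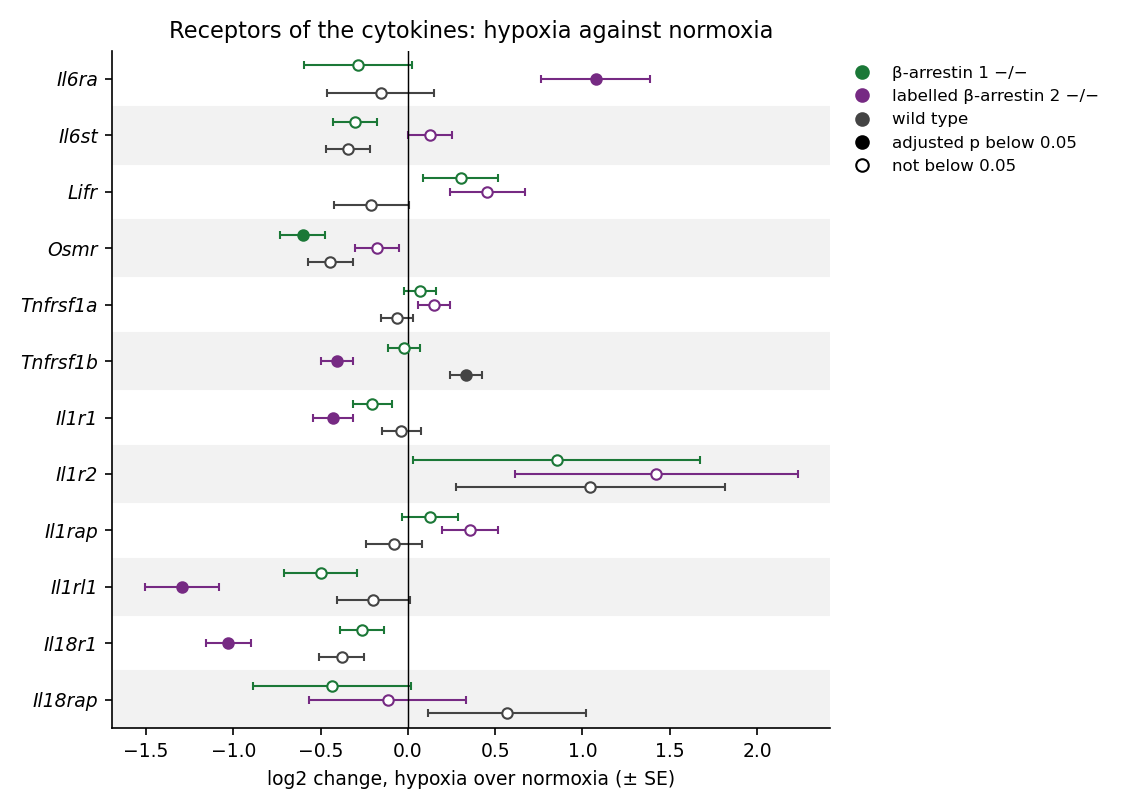
The log2 change of 12 receptor genes, hypoxia over normoxia (x axis, ± SE), in each genotype, with filled points for an adjusted p below 0.05. Tnfrsf1b is filled on opposite sides of 0 in the libraries labelled β-arrestin 2 −/− (−0.41) and wild type (0.33), and Il1rl1 (−1.29) and Il18r1 (−1.03) are filled in the libraries labelled β-arrestin 2 −/−.

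Of 23 tested acute-phase and cytokine-induced genes, 0 were called in hypoxia in β-arrestin 1 −/−, 4 fell in the libraries labelled β-arrestin 2 −/−, and 3 rose and 1 fell in wild type. The wild type rises were Junb (1.77 ± 0.40, edgeR adjusted p = 0.0202), an AP-1 subunit, Zfp36 (1.14 ± 0.28, 0.0308), whose protein degrades Tnf mRNA, and the neutrophil chemokine Cxcl1 (2.97 ± 0.80, 0.0450). Each of those 3 calls was lost without wild type hypoxia replicate 2 and with the tissue score as covariate. Of 11 IL-6 family signalling genes, 0 were called in β-arrestin 1 −/− and in wild type, and 2 rose and 1 fell in the libraries labelled β-arrestin 2 −/−. The 1 that fell was Socs3, the feedback inhibitor that STAT3 induces, at a mean of 39.3 CPM in hypoxia and 65.1 CPM in normoxia (−0.73 ± 0.20, adjusted p = 0.0174). Its response differed from that in wild type by −1.16 ± 0.28 (adjusted p = 0.0272, held in 14 of 21 alternatives). Socs3 was already higher in the libraries labelled β-arrestin 2 −/− than in wild type in normoxia (0.70 ± 0.20, adjusted p = 0.0387), and its 39.3 CPM in their hypoxia stood beside 54.0 CPM in wild type hypoxia and 40.0 CPM in wild type normoxia. Bcl3, an NF-kappaB cofactor that cytokines induce, fell by 0.71 ± 0.18 on the log2 scale in the libraries labelled β-arrestin 2 −/− (adjusted p = 0.0139), with a difference in response from wild type of −1.36 ± 0.26 (adjusted p = 0.0108) that held in 20 of 21 alternatives. Bcl3 too was higher in these libraries than in wild type in normoxia (0.76 ± 0.18, adjusted p = 0.0231), and its means were 18.7 CPM in their hypoxia and 30.6 CPM in their normoxia, against 28.5 and 18.1 CPM in wild type hypoxia and normoxia.

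Of 16 inflammasome and IL-1 signalling genes, 0 were called in hypoxia in β-arrestin 1 −/− or wild type, and 1 rose and 3 fell in the libraries labelled β-arrestin 2 −/−. Of 15 genes of TNF ligands, receptors and processing, 0 were called in β-arrestin 1 −/−, 1 rose and 3 fell in the libraries labelled β-arrestin 2 −/−, and 2 rose in wild type, Tnfrsf1b and Tnfaip3, whose protein limits NF-kappaB signalling (1.02 ± 0.27, edgeR adjusted p = 0.0395, lost without wild type hypoxia replicate 2). Among 18 tested pentraxins and partners, 0 rose and 3 fell in the libraries labelled β-arrestin 2 −/−, the C1q chains C1qa, C1qb and C1qc, which PTX3 binds, by 0.70, 0.77 and 0.93 on the log2 scale. The calls held in 9, 11 and 15 of 15 alternatives in that order of genes. In normoxia their means were 89.6, 44.0 and 48.6 CPM in these libraries, against 60.8, 33.6 and 33.7 CPM in wild type. In hypoxia the means were 55.3, 25.8 and 25.5 CPM, against 65.5, 32.1 and 35.6 CPM in wild type. In β-arrestin 1 −/− 0 rose and 1 fell, the endothelial adhesion molecule Sele (−2.98 ± 0.39, edgeR adjusted p = 0.000978). Sele averaged 4.36 ± 0.72 CPM in β-arrestin 1 −/− normoxia, above every other group mean, and 0.53 CPM in hypoxia of that line. It was at 0.85 CPM in wild type normoxia and 0.92 CPM in wild type hypoxia. In wild type 0 rose and 1 fell, the neuronal pentraxin Nptx1 (−0.66 ± 0.18, adjusted p = 0.0427, held in 6 of 15 alternatives). The 19 tested monocyte and interstitial macrophage markers include the 3 C1q genes. In hypoxia they had 11 lower calls and 1 higher in the libraries labelled β-arrestin 2 −/−. Their part in the fall of C1q was not tested.

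Over the 18 libraries the genes whose log2 CPM was most like that of Ptx3 were Sh3gl3 (Pearson r = 0.941), Stab2 (0.917), Fam181b (0.911), Ptgir (0.908) and Rnf152 (0.890). Deviations from the group means gave 0.588, 0.175, 0.343, 0.515 and 0.243 in the same order of genes, so much of the likeness lay between groups. For Il1b the closest genes were Trem1 (0.940), S100a9 (0.918) and Csf3r (0.918), all 3 on the neutrophil list, and within groups the values were 0.917, 0.955 and 0.905. Cxcl1 was among the 3 closest to Il6 (0.837) and Cxcl2, another neutrophil chemokine, among the 3 closest to Tnf (0.827). P2ry13 (0.947), Alox5 (0.916) and Sirpa (0.913), genes of myeloid cells, were closest to Il1rn, and Mal (0.904), Cdk19 (0.888) and Nkain1 (0.873) to Osm. Ptx3 and Osm had r = 0.770 over all libraries and −0.084 within groups. These values are descriptions over libraries that share groups and depth.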

How the data were processed

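Poly(A) RNA from about 30 mg of frozen lung was made into 18 libraries from 1 µg of input, per the labels' protocols. FastQC, TopHat, Cuffdiff and the mm10 build are named in the submitters' processing notes, and their versions were not given there. What the authors deposited was, for each gene in each library, an estimated count of fragments (93.3% of them whole) and an FPKM value. A further deposited table holds the authors' own comparisons, of which each p-value, q-value and test score (for its sign) was taken. Of 23356 features, 5 that Cuffdiff had set to 0 for excess depth were left out and 20 with a failed estimate in some library were kept.

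The rounded counts went into 1 edgeR fit of all 18 libraries (version 4.0.16, R 4.3.3) with TMM factors; filterByExpr, given the 6 groups, kept 15388 genes. Quasi-likelihood F-tests were adjusted by Benjamini-Hochberg, with a threshold of 0.05. Log2 changes carry SE and CPM carry SD over 3 libraries. Log2 CPM for likeness and for the tissue score used a prior count of 2. Alternatives were a test with DESeq2 1.42.0, edgeR with DESeq2's size factors, edgeR without the filter, limma (3.58.1) on log2(FPKM + 1) or log2(FPKM + 0.1) with or without a minimum FPKM of 1 in 3 libraries, a fit restricted to the groups compared, a replicate block, the tissue score as covariate, and each library left out in turn. The scripts were tested on simulated counts. Replicates differed by more than sampling noise (chi-square per gene 8.81 to 94.0, the highest between replicates 0 and 2 of β-arrestin 1 −/− hypoxia).

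The 10 genes and the gene lists were chosen with earlier results of these data known. The text names all 10 genes, their receptors, up to 4 called genes of each pathway list in a contrast, and the 5 genes most like Ptx3 or the 3 most like another of the 10, leaving out unnamed gene models. Some genes that this rule selects are left out of the text. Coordinates are mm10 from GENCODE M21, and promoters were matched by symbol. Counting intervals cover counting error only. Figures were drawn with matplotlib 3.10.9.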

Additional observations from a re-analysis of the deposited data

How the results depend on the processing

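In 1445 refits of single genes, 0 called changes reversed direction, 15 lost a call and 31 gained one. DESeq2 called 5 of the 10 genes for hypoxia in wild type, 3 for hypoxia in β-arrestin 1 −/− (Il1b besides Ptx3 and Osm), 1 in β-arrestin 1 −/− against wild type in hypoxia, 5 in the libraries labelled β-arrestin 2 −/− against wild type in hypoxia and 3 in the interaction of these libraries with wild type. With the tissue score as covariate the wild type hypoxia count was 1 and that of the libraries labelled β-arrestin 2 −/− against wild type in hypoxia was 2. Limma on log2(FPKM + 1) gave 1 for hypoxia in β-arrestin 1 −/−, and limma on log2(FPKM + 0.1) gave 0 for the libraries labelled β-arrestin 2 −/− against wild type in hypoxia, with or without a minimum. Fitting only the groups compared gave 1 and 0 in the same pair of comparisons. Leaving out 1 library at a time gave 2 to 4 calls for hypoxia in wild type, 1 to 2 in β-arrestin 1 −/− and 1 in the libraries labelled β-arrestin 2 −/−. It gave 0 to 3 for these libraries against wild type in hypoxia, 0 to 1 in normoxia and 0 to 2 for their interaction. Without any 1 of the hypoxia libraries labelled β-arrestin 2 −/−, the count against wild type was 0 and Lif was at an adjusted p of 0.0506 to 0.195. The causes were not tested.

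Same-numbered libraries did not deviate together in all pairs (correlations −0.21 to 0.46). Between β-arrestin 1 −/− and wild type hypoxia the correlation was 0.464 for replicate 0, −0.02 for replicate 1 and 0.262 for replicate 2. These values cannot settle whether the numbers mark a pairing or a batch, and the main fit treats the libraries as unpaired. With a replicate block, 2 genes (Osm and Ptx3) were called in the libraries labelled β-arrestin 2 −/− against wild type in hypoxia and 1 (Osm) in their interaction, while Lif was at an adjusted p of 0.0840.

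Over all genes, hypoxia in wild type gave 733 calls, against 1270 with DESeq2, 54 with the tissue score and 209 to 943 with 1 library left out. In β-arrestin 1 −/− it gave 454, against 836 with DESeq2, 47 from only the groups compared and 133 to 491 with 1 library left out. In the libraries labelled β-arrestin 2 −/− it gave 3370, against 1710 to 3107 with 1 library left out. Against wild type in normoxia, β-arrestin 1 −/− gave 34, with 172 by DESeq2, 16 with the tissue score, 109 from only the groups compared and 15 to 30 with 1 library left out, and the libraries labelled β-arrestin 2 −/− gave 1460, with 2701, 31, 2638 and 316 to 1922 in the same order. Against wild type in hypoxia, β-arrestin 1 −/− gave 31, with 151, 20, 12 and 20 to 34, and the libraries labelled β-arrestin 2 −/− gave 142, with 476 by DESeq2, 84 from only the groups compared and 52 to 298 with 1 library left out. The interaction of β-arrestin 1 −/− with wild type gave 0 by edgeR, with 898 genes at an unadjusted p below 0.05, 9 calls by DESeq2 and 1 from only the groups compared. That of the libraries labelled β-arrestin 2 −/− gave 931, with 1844 by DESeq2, 79 with the tissue score, 1540 from only the groups compared and 313 to 2022 with 1 library left out. With 3 libraries a group and at most 68 Il6 fragments in a group, depth limits what can be said of Il6.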
